A study of Mus musculus with 8 samples.

Results

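The classical end-joining core is a group of 10 genes, taken by symbol from a table of 55487 genes measured in 8 libraries of mouse 2-cell embryos. All 10 symbols (Xrcc5, Xrcc6, Prkdc, Lig4, Xrcc4, Nhej1, Dclre1c, Poll, Polm and Aplf) were found in the table. Classical non-homologous end joining rejoins broken DNA ends without a long homologous template. The Ku heterodimer (Ku80, encoded by Xrcc5, and Ku70, encoded by Xrcc6) encircles the broken end and recruits the kinase DNA-PKcs (Prkdc). The nuclease Artemis (Dclre1c) and the polymerases lambda (Poll) and mu (Polm) trim and fill the ends, and DNA ligase IV (Lig4) seals them together with its partners XRCC4 (Xrcc4) and XLF (Nhej1). APLF (Aplf) is a scaffold that binds Ku and XRCC4. The pathway runs beside alternative end joining by DNA polymerase theta (Polq), the gene targeted in this study.

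The 4 knockdown-labelled samples were embryos labelled polq knockdown, injected at the 1-cell stage with CasRX and a guide RNA against Polq. The 4 control samples were embryos labelled WT that received CasRX, with no guide RNA named. CasRX is an RNA-guided enzyme that cuts RNA and leaves DNA uncut. In both groups injection was at 20 h after human chorionic gonadotropin, RNA was taken 10 h later, and each sample pooled 5 embryos, so that a lower level in every embryo and an absence from some of the 5 cannot be told apart.

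The knockdown-labelled libraries held 4726159, 8627403, 8100969 and 33650050 counts in replicates 1 to 4, against 33311665 to 43748621 in the controls. Depth and group therefore moved together, except in knockdown-labelled replicate 4, and the part of depth in the results on low genes was not tested beyond the alternatives given here. The 14 listed oocyte and 2-cell markers summed to 32119 to 48598 counts per 1000000 (CPM) in the knockdown-labelled libraries and to 39028 to 45202 CPM in the controls. The 22 listed markers of cumulus, immune, blood, sperm and fibroblast cells stayed at or below 10.7 CPM per list in the knockdown-labelled libraries and at or below 21.5 CPM per list in the controls. Among them Fshr, Foxl2, Cd3e, Lyz2, Prm1 and Tnp1 had no count in any library. By list, 4 of 8 cumulus and granulosa, 4 of 6 immune and blood, 3 of 4 sperm and 0 of 4 fibroblast markers were at 0 throughout, and the others had counts. Polq itself was at 16.9, 38.9, 29.2 and 41.1 CPM in knockdown-labelled replicates 1 to 4 and at 34.6, 49.7, 40.1 and 32.7 CPM in control replicates 1 to 4. The groups overlapped (edgeR log2 fold change −0.32, SE 0.34, adjusted p = 1.0; 2-sided exact permutation test over 70 assignments, p = 0.343, where the smallest possible p is 0.0286), so the samples are named by their label.

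RNA of the end-joining core was uneven. Summed over the 10 genes it came to 90.2, 86.3, 115 and 90.0 CPM in knockdown-labelled replicates 1 to 4 (95.4 ± 13.3 CPM, mean ± SD, n = 4) and to 77.0, 142, 95.8 and 130 CPM in control replicates 1 to 4 (111 ± 30.0 CPM, mean ± SD, n = 4). The groups overlapped in this sum. At least 5 CPM by library totals in 4 libraries was reached by 6 of the 10 genes and by 8007 genes in all, beside 13146 genes tested. Prkdc, Xrcc4, Nhej1, Polm and Dclre1c had counts in all 8 libraries, while Xrcc5, Xrcc6, Lig4, Poll and Aplf were at 0 in at least 1 library. Of the 80 values 13 were 0. Counts were found for 10, 8, 10 and 6 core genes in knockdown-labelled replicates 1 to 4 and for 9, 7, 9 and 8 in control replicates 1 to 4. The fewest were thus in knockdown-labelled replicate 4 and control replicate 2, libraries of 33650050 and 35007614 counts. Of all 13146 genes tested, 29.8% were at 0 in at least 1 library. Within a group the same gene could be at 0 in one library and well covered in another, as with Aplf at 0 and 539 counts in control replicates 4 and 2.

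**Figure D1:**
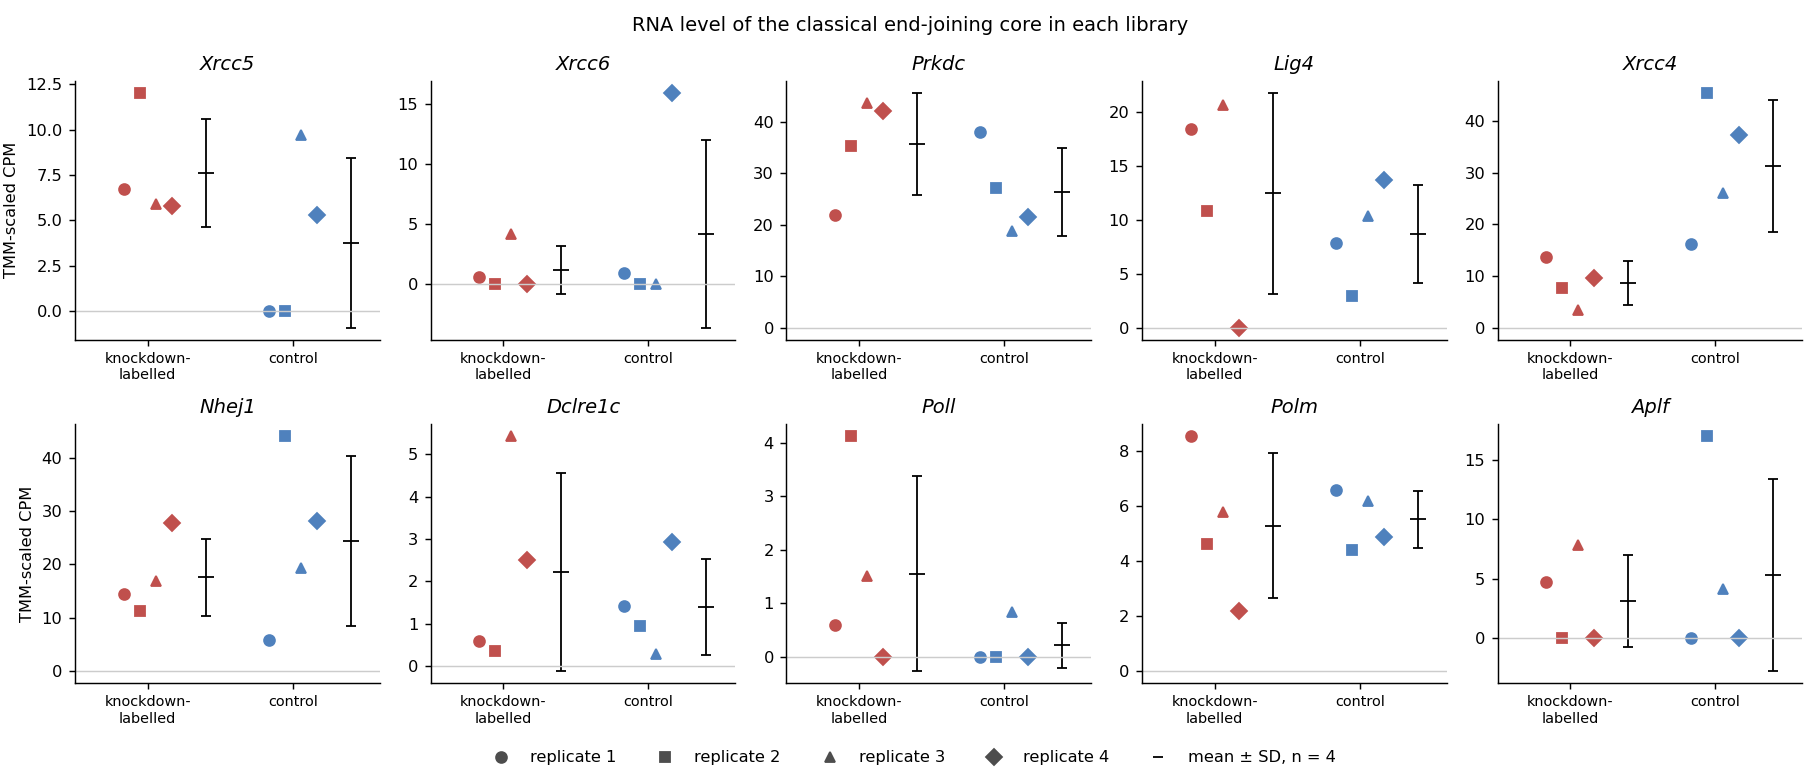
Level of each gene in TMM-scaled counts per 1000000 (CPM) in 4 knockdown-labelled and 4 control libraries. Each symbol is a library and the black mark is the mean ± SD; Xrcc4 is the gene whose groups lie apart, with the knockdown-labelled libraries at 3.47 to 13.7 CPM and the controls at 16.3 to 45.4 CPM, and Xrcc6, Poll and Aplf are at or near 0 in several libraries of both groups.

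Per kb of annotated exon, the order of the levels was led by Nhej1, the gene for XLF, with 1118 exonic bases. Nhej1 averaged 15.7 ± 6.45 CPM per kb in the knockdown-labelled libraries and 21.8 ± 14.3 CPM per kb in the controls (SD, n = 4 each). In the controls Xrcc4 came next at 7.42 ± 3.03 CPM per kb, followed by Prkdc at 2.00 ± 0.645 and Lig4 at 1.67 ± 0.872 CPM per kb. Nhej1 and Xrcc4 overlapped in their control ranges (5.25 to 39.4 and 3.86 to 10.8 CPM per kb), as did Prkdc and Lig4, whereas the lowest Xrcc4 control lay above the highest Prkdc control (2.89 CPM per kb). In the knockdown-labelled libraries Nhej1 was followed by Xrcc5 at 2.98 ± 1.16, Prkdc at 2.71 ± 0.753, Lig4 at 2.40 ± 1.79 and Xrcc4 at 2.05 ± 1.01 CPM per kb, and these 4 overlapped. Dclre1c was among the lowest in both groups, at 0.239 ± 0.252 CPM per kb in the knockdown-labelled libraries and 0.149 ± 0.121 CPM per kb in the controls. For comparison, Polq stood at 3.25 ± 1.14 CPM per kb in the knockdown-labelled libraries and 4.06 ± 0.790 CPM per kb in the controls.

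Between the groups, none of the 10 genes passed edgeR's quasi-likelihood test at an adjusted p under 0.05, where 0% of the 13146 genes tested were called higher and 0% lower. The estimates were positive for 5 genes and negative for 5, with a median log2 fold change of 0.19 over the 10 genes and of −0.05 over all genes tested. At an unadjusted p under 0.05 there was 1 gene, Xrcc4, against 2.81% of all genes tested. DESeq2 called 20 of the 13146 genes tested, among them none of the 9 core genes to which it gave an adjusted p. Xrcc6 received no adjusted p.

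**Figure D2:**
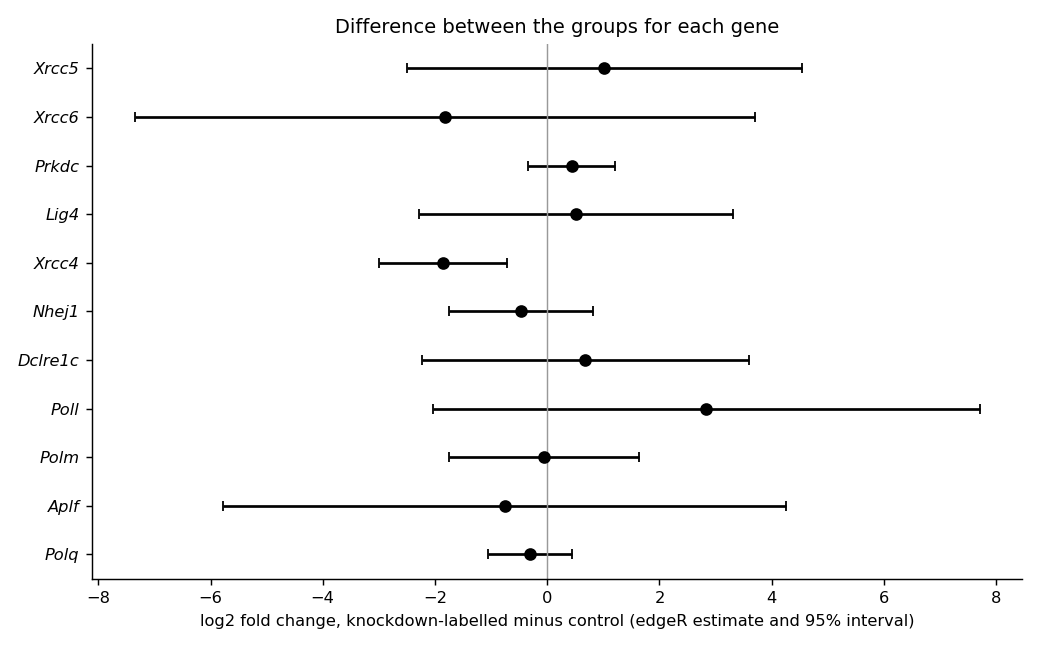
Log2 fold change (knockdown-labelled minus control) of each of the 10 genes and of Polq, with the edgeR 95% interval. The interval of Xrcc4 lies below 0, from −3.00 to −0.72, without an adjusted p under 0.05; the other intervals include 0, and those of Xrcc6, Poll and Aplf span more than those of Prkdc and Nhej1.

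Counts of both Ku subunits were found in 4 of 8 libraries. Xrcc5 (chromosome 1, 72307421 to 72394952, plus strand; coordinates here are GRCm38, GENCODE M21) was at 6.74, 12.0, 5.89 and 5.80 CPM in knockdown-labelled replicates 1 to 4 and at 0.0306, 0, 9.68 and 5.31 CPM in control replicates 1 to 4. Its knockdown-labelled libraries were all above 5 CPM, while control replicate 2 had no count and control replicate 1 a single count, in libraries of 35007614 and 33311665 counts. The groups overlapped (log2 fold change 1.02, 95% interval −2.50 to 4.54, edgeR unadjusted p = 0.533). Xrcc6 (chromosome 15, 81987835 to 82040085, plus strand) was at 0.595, 0, 4.16 and 0 CPM in knockdown-labelled libraries and at 0.917, 0, 0 and 15.9 CPM in the controls. Control replicate 4 held 94.6% of the summed control level of Xrcc6, and 4 of 8 libraries held none. Of the 8 libraries, only knockdown-labelled replicates 1 and 3 and control replicates 1 and 4 had counts of both subunits. The ratio of Xrcc5 to Xrcc6 counts, which no scaling of the libraries alters, was 11.3 and 1.42 in those knockdown-labelled libraries and 0.0333 and 0.333 in those controls. The ratio of 11.3 rests on 34 and 3 counts, and that of 0.0333 on 1 and 30 counts.

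A count of 0 has a limit set by depth. If 3 counts are taken as the most that a 0 allows, the Xrcc6 level could have been up to 0.364 CPM in knockdown-labelled replicate 2, 0.0940 CPM in knockdown-labelled replicate 4, 0.0945 CPM in control replicate 2 and 0.0686 CPM in control replicate 3. These limits cover counting error only. The labels mention no molecular identifiers, so that amplified copies of a molecule may have been counted as separate reads.

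Prkdc, the kinase that Ku recruits, had the smallest spread that edgeR assigned to any gene of the core. It lies on chromosome 16 from 15637866 to 15842235 on the plus strand, with 13187 exonic bases. Its level stood at 21.8, 35.4, 43.6 and 42.1 CPM in knockdown-labelled replicates 1 to 4 and 38.1, 27.1, 18.8 and 21.6 CPM in control replicates 1 to 4. The highest values were in knockdown-labelled replicates 3 and 4, and control replicate 1 lay above the other controls and inside the knockdown-labelled range. The estimate was 1.35-fold, with an interval from 0.792-fold to 2.31-fold (log2 fold change 0.44, SE 0.35, edgeR unadjusted p = 0.236, adjusted p = 1.0). A change of Prkdc beyond 2.31-fold up or below 0.792-fold lay outside this interval, which was the narrowest of the 10.

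Lig4, the ligase of the pathway (chromosome 8, 9969049 to 9977686, minus strand), was at 18.4, 10.8, 20.7 and 0 CPM in knockdown-labelled replicates 1 to 4. In control replicates 1 to 4 it was at 7.86, 2.93, 10.3 and 13.7 CPM. The 0 stood in knockdown-labelled replicate 4, the deepest library of its group, where it allows at most 0.0940 CPM, while the other 3 of that group were above 10 CPM. The log2 fold change was 0.51 (95% interval −2.28 to 3.31) by edgeR and −4.17 by limma-voom, so that its direction depended on the tool. Nhej1 (chromosome 1, 74967139 to 75125200, minus strand) was at 14.5, 11.2, 16.9 and 27.8 CPM in knockdown-labelled libraries and at 5.87, 44.1, 19.4 and 28.2 CPM in the controls. The controls enclosed the whole knockdown-labelled range, and the log2 fold change was −0.47 (95% interval −1.75 to 0.81) by edgeR and 0.063 by limma-voom. Without control replicate 2 the edgeR estimate was −0.011.

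Xrcc4, the scaffold that stabilises ligase IV, was the gene of the core whose groups did not overlap. It was at 13.7, 7.78, 3.47 and 9.62 CPM in knockdown-labelled replicates 1 to 4 (8.64 ± 4.24 CPM, mean ± SD, n = 4) and at 16.3, 45.4, 26.0 and 37.3 CPM in control replicates 1 to 4 (31.3 ± 12.8 CPM, mean ± SD, n = 4). All 4 knockdown-labelled libraries were lower than all 4 controls, with knockdown-labelled replicate 1 and control replicate 1 next to each other. Groups lay apart in this direction in 1.54% of all genes tested, and in either direction in 2.98%. By the edgeR fit, knockdown-labelled libraries held 27.6% of the Xrcc4 RNA of the controls (95% interval 12.5% to 60.6%; log2 fold change −1.86, SE 0.51). It did not pass: edgeR's unadjusted p of 0.00457 ranked 39 among the 13146 genes and the adjusted p was 1.0. Adjusted p ran from 0.180 (DESeq2) to 1.0 over the alternatives. With each library left out in turn the log2 fold change ran from −2.16 to −1.60.

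The contrast with the other genes of the core also stood in the raw counts, where library scaling plays no part. Xrcc4 made up 15.2%, 9.01%, 3.03% and 10.7% of the counts of the 10 genes in knockdown-labelled replicates 1 to 4, against 21.1%, 32.0%, 27.2% and 28.8% in control replicates 1 to 4. Nhej1, whose product pairs with XRCC4 protein in alternating filaments, had 1.06, 1.44, 4.84 and 2.89 counts for each Xrcc4 count in the knockdown-labelled libraries, against 0.361, 0.971, 0.745 and 0.754 in the controls. In both measures the groups lay apart, but both share the Xrcc4 counts with the levels above and are no separate evidence. How often such measures lie apart over all genes was not determined. The number of Xrcc4 counts for each Lig4 count was 0.742, 0.719 and 0.169 in knockdown-labelled replicates 1 to 3 and could not be formed in replicate 4, where Lig4 was at 0. It was 2.07, 15.5, 2.52 and 2.72 in control replicates 1 to 4. Ratios of partners without Xrcc4 overlapped between the groups. Poll to Polm ran from 0 to 0.895 in the knockdown-labelled libraries and from 0 to 0.137 in the controls. Prkdc to Dclre1c ran from 8.02 to 96.0 in the knockdown-labelled libraries and from 7.34 to 68.1 in the controls.

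**Figure D3:**
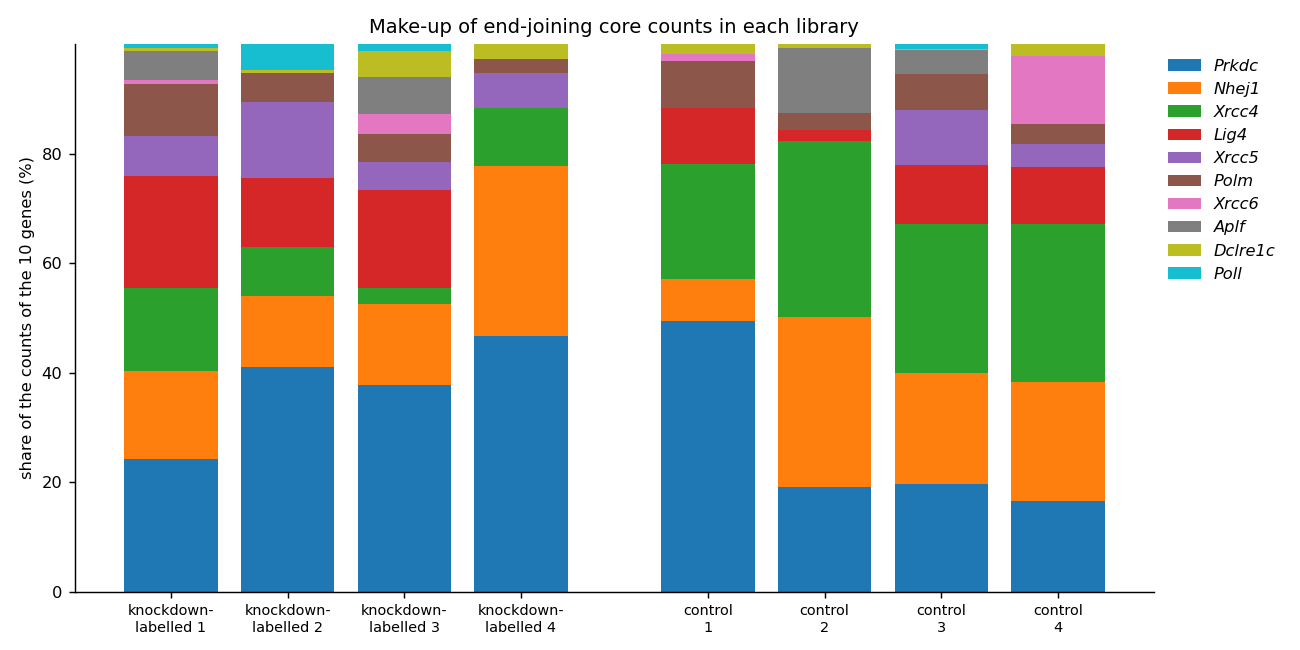
Share of each gene in the summed counts of the 10 genes, in percent, in each knockdown-labelled and control library. The Xrcc4 share is 3.03% to 15.2% in the knockdown-labelled libraries and 21.1% to 32.0% in the controls, and Prkdc ranges from 24.2% to 46.7% in the knockdown-labelled libraries and from 16.6% to 49.4% in the controls.

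The Xrcc4 counts were not independent of a neighbouring gene. Xrcc4 runs on the minus strand of chromosome 13 from 89774027 to 90089608, and Tmem167, a gene for a Golgi membrane protein, runs the other way from almost the same place. In GENCODE M21 a Tmem167 transcript begins at 90089123 and its exons cover 112 of the 4213 exonic bases of Xrcc4. RSEM, which the authors used, gives decimals to a gene when it divides reads among genes that the reads match equally. Xrcc4 had decimals in 6 of 8 libraries, and in each of the 6 the decimals of Tmem167 completed them to a whole number within 0.01. Those without decimals were knockdown-labelled replicate 1 (69 Xrcc4 and 578 Tmem167 counts) and knockdown-labelled replicate 2 (64 and 613 counts). All controls had decimals. In knockdown-labelled replicate 3 the pair had 30.19 and 1833.81 counts, and in control replicate 1 it had 532.36 and 8562.64 counts. Of the 55487 genes, Tmem167 was the 1 other gene for which this held in all 6 libraries. The number of reads divided cannot be read from the decimals.

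Tmem167 was far more abundant than Xrcc4. It was at 115, 74.5, 212 and 306 CPM in knockdown-labelled replicates 1 to 4 and at 262, 141, 164 and 348 CPM in control replicates 1 to 4, so that its groups overlapped. Xrcc4 made up 1.62% to 10.7% of the counts of the pair in the knockdown-labelled libraries and 5.85% to 24.4% in the controls. When the counts of both genes were summed, an alternative chosen after seeing the data, the log2 fold change was −0.49 (95% interval −1.39 to 0.42, edgeR unadjusted p = 0.257) and the groups overlapped. This sum consists mostly of Tmem167. What part the division of reads has in the Xrcc4 difference was not tested beyond this.

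**Figure D4:**
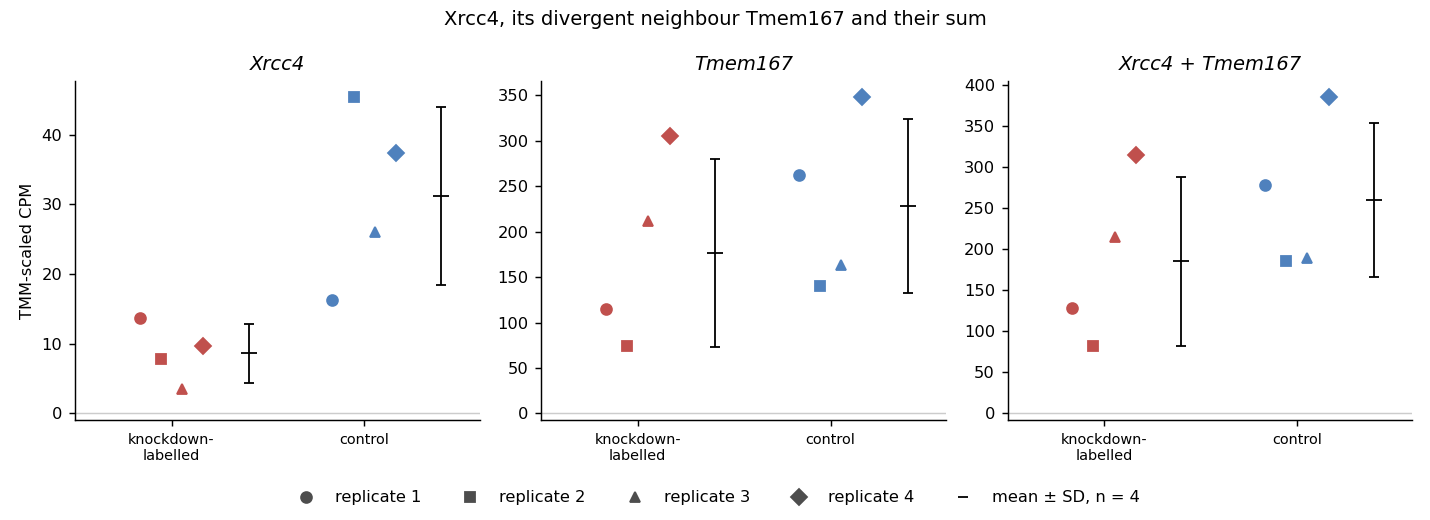
Levels of Xrcc4, of Tmem167 and of their sum in TMM-scaled CPM, for 4 knockdown-labelled and 4 control libraries, with mean ± SD in black. The Xrcc4 groups lie apart, at 3.47 to 13.7 CPM and 16.3 to 45.4 CPM, while the Tmem167 groups overlap, at 74.5 to 306 CPM and 141 to 348 CPM, and so do the sums.

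Neighbours with a divergent start are given for Xrcc4, Lig4, Xrcc6, Prkdc and Poll. These pairs were picked by hand, and the other core genes were not searched for such a neighbour. The share over all genes was not determined. RefSeq starts (GRCm38.p6) place the start of Xrcc4 58 bases from that of Tmem167, the start of Lig4 36 bases from that of Abhd13, and the start of Xrcc6 148 bases from that of Desi1. This RefSeq start of Xrcc6 is at 82016369, whereas the GENCODE M21 span of Xrcc6 given above begins at 81987835. In GENCODE M21 Prkdc and Mcm4, a helicase subunit, are 465 bases apart head to head, and Poll and Gm17018 are 83 bases apart. The stretches between the 3 pairs of RefSeq starts are shown. Xrcc4 was chosen because its groups lay apart. Lig4 and Xrcc6 were chosen because they were at 0 in libraries where their neighbours had counts. The same held for Poll and Gm17018, but no RefSeq start window was matched for Poll. Each stretch runs 5′ to 3′ on the strand of the end-joining gene. Capitals mark a match to CCGGAAG, the core recognised by ETS family factors, which was searched on both strands.
Xrcc4, chr13:90089609-90089666, minus strand: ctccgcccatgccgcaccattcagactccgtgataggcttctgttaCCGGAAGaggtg
Lig4, chr8:9977681-9977716, minus strand: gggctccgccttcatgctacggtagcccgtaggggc
Xrcc6, chr15:82016221-82016368, plus strand: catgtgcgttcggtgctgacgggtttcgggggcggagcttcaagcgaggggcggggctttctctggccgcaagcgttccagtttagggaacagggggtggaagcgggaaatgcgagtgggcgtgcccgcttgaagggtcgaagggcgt

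Windows of 300 bases around the start (250 before, 50 after) were matched for 8 of the 10 genes, 9 windows in all because Lig4 has more than 1 start. They held 9 to 31 CpG dinucleotides each, beside a median of 7 (quartiles 3 and 20) over 32851 windows. CCGGAAG was in 4 of the 9 windows, those of Xrcc4, Dclre1c and Lig4, and in 8.86% of all windows. The motif was picked after the sequences were read. A match is a string of letters and not a measured binding site.

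The neighbours had counts in libraries where the end-joining genes had none. In knockdown-labelled replicate 4, where Lig4 was at 0, Abhd13 had 590 counts and 18.5 CPM, the highest value of that group, in which the other 3 libraries were at 12.7 to 17.3 CPM. Abhd13 ranged from 10.0 to 33.9 CPM in the controls. Desi1, beside Xrcc6, had counts in all 8 libraries, at 5.61 to 14.3 CPM in knockdown-labelled libraries and 2.80 to 12.0 CPM in the controls. Its exons overlap 344 exonic bases of Xrcc6, and in control replicate 4 the pair had 684.71 and 232.29 counts, decimals that again complete each other. Mcm4 was at 21.4 to 48.1 CPM in knockdown-labelled libraries and 10.1 to 43.2 CPM in the controls.

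Dclre1c (chromosome 2, 3424131 to 3464130, plus strand), which encodes the nuclease Artemis, had 3.04, 3.03, 47.03 and 80.26 expected counts in knockdown-labelled replicates 1 to 4 and 46.33, 30.00, 12.08 and 126.42 in control replicates 1 to 4. That is 0.364 to 5.43 CPM in knockdown-labelled libraries and 0.274 to 2.93 CPM in the controls, and the groups overlapped (log2 fold change 0.68, 95% interval −2.23 to 3.60). Dclre1c had decimals in 7 libraries, and in all 7 the histone methyltransferase gene Suv39h2, which lies tail to tail with it and overlaps 357 of its exonic bases, completed them to whole numbers. No other gene did so. Dclre1c made up 1.21% to 12.7% of the counts of this pair in the knockdown-labelled libraries and 0.921% to 4.82% in the controls.

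Of the gap-filling polymerases, Polm was present in all libraries and Poll in 4 of 8. Polm (chromosome 11, 5827860 to 5838016, minus strand) was at 8.53, 4.62, 5.78 and 2.19 CPM in knockdown-labelled replicates 1 to 4 and at 6.57, 4.38, 6.18 and 4.86 CPM in control replicates 1 to 4. The controls lay inside the knockdown-labelled range, with a log2 fold change of −0.06 (95% interval −1.76 to 1.63). Poll (chromosome 19, 45552275 to 45560531, minus strand) was at 0.595, 4.13, 1.50 and 0 CPM in knockdown-labelled libraries and at 0, 0, 0.846 and 0 CPM in the controls. These Poll levels rest on 3, 34, 13 and 0 counts in knockdown-labelled libraries and on 0, 0, 37 and 0 in the controls. The log2 fold change was 2.84 with an interval from −2.04 to 7.71, which holds both a decrease and a large increase, and the edgeR unadjusted p was 0.224. Its divergent neighbour Gm17018 was at 8.08 to 19.6 CPM in knockdown-labelled libraries and 16.1 to 41.8 CPM in the controls.

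Aplf, the scaffold gene (chromosome 6, 87628424 to 87672193, minus strand), had 24, 0, 68 and 0 counts in knockdown-labelled replicates 1 to 4 and 1, 539, 183 and 0 in control replicates 1 to 4. Control replicate 2 held 80.1% of the summed control level. The groups overlapped (log2 fold change −0.76, 95% interval −5.77 to 4.26), and the antisense gene Gm44097, whose exons overlap 139 bases of Aplf, had no count in any library.

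The spread between replicates differed among the genes of the core. The biological coefficient of variation that edgeR assigned was 0.393 for Prkdc, 0.530 for Xrcc4 and 0.595 for Nhej1, beside 0.505, 0.613 and 0.596 on the trend for genes of their abundance. It was 2.47 for Xrcc6, 2.19 for Poll and 2.18 for Aplf, where the trend gave 1.48, 1.50 and 1.30. In Lig4 it was 1.18 against 0.845 on the trend, and in Xrcc5 1.45 against 1.15.

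Other genes of end joining were read from a list of 21 accessory and end-processing genes. Of these 14 passed the filter on low counts. Their log2 fold changes were positive in 5 and negative in 9, with the median at −0.13, and none was called or had groups that lay apart. The genes with the smallest edgeR p were Aptx, Tdp2 and Rnf168. Aptx, which removes adenylate left by failed ligation, was at 7.93, 41.1, 15.4 and 30.5 CPM in knockdown-labelled replicates 1 to 4 and at 7.00, 0.0315, 13.0 and 3.79 CPM in control replicates 1 to 4 (log2 fold change 1.99, 95% interval −0.48 to 4.47, edgeR unadjusted p = 0.103). Rnf168, a ubiquitin ligase of the break response, was at 37.4 ± 7.06 CPM in knockdown-labelled libraries and 52.6 ± 25.5 CPM in the controls (SD, n = 4 each).

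The most abundant of the 21 per kb were Tdp2, Rif1 and Atm, at 41.4, 40.4 and 21.2 CPM per kb averaged over all 8 libraries. Tdp2, which frees DNA ends from trapped topoisomerase, was at 124 ± 20.5 CPM in knockdown-labelled libraries and 148 ± 11.9 CPM in the controls, an estimate of 0.838-fold with an interval from 0.627-fold to 1.12-fold. Rif1, which protects ends from resection, was at 431 ± 38.0 CPM in knockdown-labelled libraries and 417 ± 75.8 CPM in the controls (1.03-fold, interval 0.801-fold to 1.33-fold). The damage kinase gene Atm was at 214 ± 64.5 CPM in knockdown-labelled libraries and 225 ± 52.5 CPM in the controls (0.953-fold, interval 0.629-fold to 1.44-fold). Dntt, the template-free polymerase of lymphocytes, had no count in any library.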

How the data were processed

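RNA was measured in 8 pools of mouse 2-cell embryos, 4 knockdown-labelled and 4 control. The authors deposited expected counts, which carry no normalisation. RSEM 1.2.28, STAR 2.7.3a and Trim Galore 0.6.10, with the build GRCm38 (mm10), are named in the submitters' processing notes. Neither an annotation release nor a strand setting is given in the sources used here. Expected counts were rounded to whole numbers (4.22% of values had decimals), and filterByExpr (minimum count 10, minimum total 15) kept 13146 of 55487 genes, all 10 core genes among them, although Xrcc6 and Poll had counts in 4 libraries each. Groups were compared with edgeR 4.0.16 in R 4.3.3 (TMM scaling, robust quasi-likelihood test, group only), and p-values were adjusted over all genes tested by the Benjamini-Hochberg method. CPM are TMM-scaled. Levels between genes are divided by the union of GENCODE M21 exons, an approximation of the lengths the authors used. Promoter sequences are from RefSeq (GRCm38.p6). Alternatives used DESeq2 1.42.0 and limma 3.58.1. The genes named are the 10 core genes, Polq, and of the 21 accessory genes the 3 with the smallest p and the 3 most abundant per kb, and neighbours, Dntt and marker genes were added after their values were seen. An accessory gene is counted with the list but not reported by name here. The core genes and lists were chosen with earlier results of these data known, Xrcc4 included, so that its separation is no independent evidence. The series text calls the samples biological replicates.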

Additional observations from a re-analysis of the deposited data

Results flagged for a closer look

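In 4 of 22 groups of 4 libraries examined (10 core genes and Polq, 2 groups each), 1 library stood apart from the other 3, where chance gives about 1 in 20 groups of normally distributed values. That rate does not hold for groups with several libraries at 0, as here for Xrcc6 and Poll, so nothing is read from the count. These were Xrcc5 in knockdown-labelled replicate 2 (12.0 CPM), Xrcc6 in knockdown-labelled replicate 3 (4.16 CPM), Xrcc6 in control replicate 4 (15.9 CPM) and Poll in control replicate 3 (0.846 CPM, with the other 3 controls at 0). All 4 were the highest value of their group.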

How the results depend on the processing

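The 10 core genes gave 203 log2 fold changes under the alternatives, of which 185 kept their sign, and none of those with an adjusted p was called (Xrcc6 had none in DESeq2). Prkdc, Xrcc4 and Xrcc5 kept their sign throughout. DESeq2 called 20 of the 13146 genes tested (144 had no adjusted p), where the other settings called 0. With limma-voom the estimate was −4.17 for Lig4 and 0.063 for Nhej1; with quality weights it was 0.31 for Xrcc6, −2.76 for Lig4 and 0.91 for Aplf. With knockdown-labelled libraries 1 to 3 left out, the lone library being assumed to vary like the controls, it was 0.073 for Polq, −11.32 for Lig4, 0.20 for Nhej1 and −5.98 for Poll. Thinned to the smallest total, Polm was at 0.051. With overlapping pairs summed, chosen after seeing the data, Xrcc6 was at 0.035 and Dclre1c at −0.084. The cause of these turns was not tested. With 1 library left out, the estimates ran from −0.39 to 0.19 for Polm, −0.24 to 1.34 for Dclre1c, −1.78 to 1.16 for Aplf, −4.60 to 1.93 for Xrcc6, 1.68 to 8.16 for Poll, 0.15 to 0.93 for Lig4, −0.79 to −0.011 for Nhej1, 0.61 to 2.09 for Xrcc5 and −0.47 to −0.11 for Polq. Dclre1c turned without knockdown-labelled replicate 3, Aplf without control replicate 2 (1.16), and Xrcc6 without control replicate 4 (1.93). Same-numbered samples did not deviate together (correlations −0.075 to 0.0085), so the replicate block is only an alternative: with it 0 genes were called, Xrcc4 was at −1.94 and Aplf at 0.66. Per kb, or without Prkdc in the sum, order and shares moved. Depth limits the low genes (Poll, Dclre1c and Xrcc6): in knockdown-labelled replicate 1 a count of 0 would allow up to 0.595 CPM. All 10 core genes had counts in that library, so the zeros of the core lay in deeper libraries.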

Other observations

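Of the 21 accessory genes, Setmar was singled out after its values were seen. It had 0 counts in all 4 knockdown-labelled libraries. In control replicates 1 to 4, Setmar had 81, 0, 268 and 314 counts. Over all 55487 genes, 60 were at 0 in all knockdown-labelled libraries with at least 10 counts in at least 3 controls, and 18 genes showed the opposite. Of the knockdown-labelled libraries 3 were shallower than every control. Setmar did not pass the filter on low counts and was not tested in the main comparison. In the alternative without that filter 0 genes were called.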
